A study of Mus musculus with 24 samples.

Results

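The effect of variable stress on gene expression was examined in the nucleus accumbens of wild-type male mice, with 3 libraries of stressed males set against 3 of unstressed control males. These 6 libraries were taken by their labels (sex, treatment and genotype) out of 24 in the series. All 6 came from mice labelled C57BL/6J and WT, with no virus. A further 6 libraries from wild-type females, 3 control and 3 stressed, entered the same model and were used to ask whether the stress difference differed between the sexes. The remaining 12 libraries came from stressed mice with a floxed Dnmt3a gene and an AAV carrying GFP or Cre, and they were used here only for the range of choroid plexus RNA. Each library was a pool of 4 mice, per the labels' protocol, so n counts pools and the spread between pools does not show the spread between mice. The series' design text gives 3 mice per group, and the protocol describes the punches as holding both nucleus accumbens and dorsal striatum. The labels used here give neither the age of the mice nor the length of the stress or the time from the last stressor to tissue collection.

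The nucleus accumbens is the ventral part of the striatum and takes part in motivation, reward and the response to stress. Most of its neurons are GABA-releasing medium spiny neurons, which carry either the dopamine receptor Drd1 or Drd2. When such a neuron fires, calcium and cAMP signals activate the factor CREB and related proteins, which switch on the immediate early genes within minutes. These encode short-lived transcription factors such as Fos and Egr1, and effectors that act on synapses or shut the signal off again, such as Arc and Dusp1. Their RNA is therefore read as a trace of recent neuronal activity.

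Total counts ranged from 9034244 to 12145551 in control males and from 9159208 to 10119709 in stressed males, and the sex markers followed the label in 24 of 24 libraries. Striatal identity was plain in all 6 male libraries. Pde10a, a phosphodiesterase of medium spiny neurons, lay between 1189 and 1521 CPM (counts scaled to library size with TMM factors), and Drd1 lay between 236 and 289 CPM. The labels give the libraries as separate samples, and no pair within a male group was a copy of 1 library (chi-square per degree of freedom of 7.82 to 22).

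Before any stress difference is read, the control males have to be told apart by their choroid plexus RNA. The choroid plexus is the tissue in the brain ventricles that makes cerebrospinal fluid, and its defining gene is Ttr, which encodes the thyroid hormone carrier transthyretin. Control libraries 1, 2 and 3 held Ttr at 8.35, 958 and 2285 CPM, and the stressed libraries at 115, 34.2 and 140 CPM. Control libraries 2 and 3 were thus above every stressed library, and control library 1 was below every stressed library. Summed over the choroid plexus list, the level was 201, 1984 and 5060 CPM in the control males and 382, 273 and 430 CPM in the stressed males. The wild-type females had 199, 1092 and 208 CPM as controls and 197, 910 and 960 CPM after stress. Without TMM scaling, 11 of the 12 floxed libraries ran from 169.3 to 384.3 CPM and 1 was at 3562 CPM.

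All 21 tested genes of the choroid plexus list (of 22 listed) had a negative log2 difference between stressed and control males, with a median of -2.91. Over all 15249 genes tested the median was -0.0011 and 50.3% were negative. None of the 21 passed at an adjusted p below 0.05 in edgeR's quasi-likelihood test, a threshold that 0.00656% of all genes passed. None had 3 stressed libraries outside the range of the 3 controls, against 7.91% of all genes, because control library 1 was above all 3 stressed libraries in 0 of the 21. At an unadjusted p below 0.05, 19 of the 21 lay lower, against 1.88% of all genes. In 16 of the 21, control libraries 2 and 3 were each more than 5-fold above control library 1, and the ratio of library 3 to library 2 in these 16 was 2.77 in the median (2.384 to 3.69). These 16 were picked by their level in control libraries 2 and 3. In the other tested members the ratio ran from 2.258 to 3.315.

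Single members show the same order. Kl, which encodes the hormone klotho, was at 9.39, 48.3 and 143 CPM in control libraries 1 to 3 and at 12.8, 11.8 and 12.1 CPM in the stressed libraries. Otx2, a homeobox factor of choroid plexus epithelium, was at 1.04, 5.21 and 16.8 CPM against 1.18, 1.74 and 1.73 CPM. Tmem72, a membrane protein gene, had 0.626, 10.2 and 25.1 CPM against 0.883, 0.434 and 1.62 CPM. The next 2 genes were named after their values were seen. Enpp2, the lysophosphatidic acid producing enzyme autotaxin, had 136, 752 and 2056 CPM against 173, 174 and 198 CPM. Folr1, a folate receptor, had 0.104, 10.5 and 26.65 CPM against 0.785, 0.651 and 1.08 CPM. Otx2, Enpp2 and Folr1 share their position with a gene on the other strand.

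**Figure D1:**
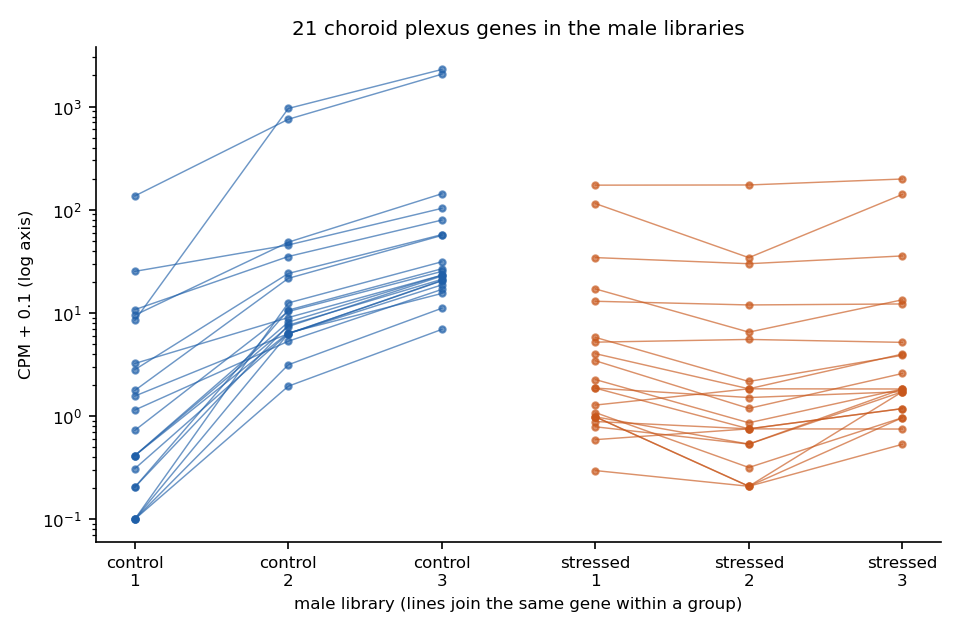
CPM plus 0.1 of the 21 tested choroid plexus genes on a log axis in each male library, with control libraries in blue and stressed libraries in orange and a line joining each gene within a group. Control libraries 2 and 3 stand above all stressed libraries for all 21 genes, and control library 1 lies below all stressed libraries for 16 of them.

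Tissues that border the ventricle or cover the brain were less uneven. Ependymal genes, which mark the ciliated cells lining the ventricle, summed to 17.6, 29.4 and 43.6 CPM in control males and to 25.5, 31.4 and 25.9 CPM in stressed males, with a median log2 difference of -0.16 over 11 tested genes. Meningeal and fibroblast genes summed to 120, 154 and 312 CPM against 110, 82.4 and 103 CPM, and 11 of 16 were negative (median -0.30). Among them Igf2, a growth factor made in meninges and choroid plexus, was at 38.6, 76.2 and 206 CPM against 43.6, 32.0 and 39.4 CPM. Igfbp2, an insulin-like growth factor binding protein, was at 9.60, 17.8 and 52.4 CPM against 11.3, 5.21 and 10.0 CPM. Both followed the order of the choroid plexus genes over the control libraries, and their log2 differences of -1.48 and -1.59 were 0.01 and -0.10 without control libraries 2 and 3. The collagen gene Col3a1 did not, with 3.23, 2.61 and 1.96 CPM in controls and 1.57, 1.95 and 0.972 CPM after stress. In these bulk samples fewer cells of a type and less RNA per cell cannot be told apart, here and for every cell type named below.

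Because of these libraries, the stress differences below are given with all 12 libraries and, for many genes and lists, also without control male libraries 2 and 3 (the value after "then"). The plot of list medians shows both for all 29 lists. The second fit keeps a single control male library and assumes that it varies like the libraries of the other groups. In that fit the median of the 21 choroid plexus genes was 1.13, with 0 of 21 negative, and the median of the 11 ependymal genes was 1.10. With the mean choroid plexus level of each library added to the model, the choroid plexus median was 0.19. That level was computed from the same genes, so their median in that fit was largely set by the model.

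Over all genes, Fos was called lower in stressed males and 0 genes were called higher by edgeR; limma-voom called 0 in either direction and DESeq2 called Rasgrf2 higher. At an unadjusted p below 0.05 there were 429 genes (2.81%), 143 higher and 286 lower, so 66.7% of them lay lower. This share of 2.81% was below the 4.9% of unchanged genes that passed the same threshold of edgeR's test in simulated data. The simulation held no choroid-rich libraries and no effect of the library number, so the shares are not like for like. With the library number as a block, 1128 genes passed this threshold of edgeR's test in the real data. The fit without control libraries 2 and 3 gave, over the same 15249 genes, 178 at this threshold (1.17%), of which 108 were higher and 70 lower. The split between higher and lower genes was thus the other way round in that fit. Of the 286 lower genes, 228 kept a negative value without the 2 libraries and 58 turned positive, while all 143 higher genes stayed positive. Over all genes 46.5% were negative in that fit. Both fits share the stressed libraries and control library 1, so a kept sign is favoured by the choice of these genes and is no independent support. Among the 286, 24 were members of the choroid plexus, ependymal or meningeal lists (19 of 21, 0 of 11 and 5 of 16 tested). Of the 286, 57 had control libraries 2 and 3 both more than 2-fold above a control library 1 within or under the stressed range. The share of all genes with this pattern was not counted. Choosing lower genes favours high values in the control libraries, so the 57 are a description only.

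The immediate early genes come next, beginning with DNA sequence at their starts. The 4 promoters below belong to genes with low values in stressed males, and they are shown because each holds the core of the cAMP response element, the site that CREB binds. Each is the stretch of 250 bases before the transcription start from RefSeq (build GRCm38.p6), on the strand of the gene, with matches to TGACGT or its reverse complement in capitals.
Fos, chr12:85473640-85473889, plus strand: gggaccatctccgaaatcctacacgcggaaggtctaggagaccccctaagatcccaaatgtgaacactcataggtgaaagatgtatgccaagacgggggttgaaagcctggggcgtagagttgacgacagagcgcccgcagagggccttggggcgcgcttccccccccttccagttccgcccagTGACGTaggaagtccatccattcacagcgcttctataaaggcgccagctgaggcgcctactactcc
Btg2, chr1:134079156-134079405, minus strand: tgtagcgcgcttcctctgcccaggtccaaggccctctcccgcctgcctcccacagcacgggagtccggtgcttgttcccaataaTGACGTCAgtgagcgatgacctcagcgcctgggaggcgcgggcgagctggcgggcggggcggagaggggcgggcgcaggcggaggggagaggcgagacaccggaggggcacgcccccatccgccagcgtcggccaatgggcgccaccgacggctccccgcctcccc
Npas4, chr19:4989972-4990221, minus strand: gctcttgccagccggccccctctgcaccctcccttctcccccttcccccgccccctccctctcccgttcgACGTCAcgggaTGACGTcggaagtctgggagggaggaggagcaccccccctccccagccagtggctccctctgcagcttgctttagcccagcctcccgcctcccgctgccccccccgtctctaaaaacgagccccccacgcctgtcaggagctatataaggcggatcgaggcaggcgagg
Dusp1, chr17:26508473-26508722, minus strand: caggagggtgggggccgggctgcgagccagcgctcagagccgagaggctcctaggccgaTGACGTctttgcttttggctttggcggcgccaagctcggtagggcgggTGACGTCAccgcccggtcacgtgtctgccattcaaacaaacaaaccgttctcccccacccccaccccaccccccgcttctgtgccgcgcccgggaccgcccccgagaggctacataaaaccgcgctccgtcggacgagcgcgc

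In Fos the match begins at position -66 from the start. Btg2 and Dusp1 hold the full palindrome TGACGTCA, which contains TGACGT on both strands, and Npas4 holds the shorter form in each orientation. The table had an entry for 32 of the 42 immediate early genes tested, Arc and Sik1 not among them. Over both strands, TGACGT was found in 16 of the 32, in 11.06% of the 11215 tested genes with an entry and in 6.47% of all 32851 promoters of this length. TGACGTCA was found in 5 of the 32 (Arl4d, Btg2, Dusp1, Errfi1 and Plk2), in 2.95% of tested genes and in 1.55% of all promoters. A match is a description of letters and not a measured binding site.

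Fos, which encodes a subunit of the transcription factor AP-1, was at 14.9, 25.8 and 22.4 CPM in the control males and at 6.18, 6.95 and 6.16 CPM in the stressed males. The groups did not overlap, and the stressed libraries lay close together. Fos fell by 1.71 on the log2 scale (SE 0.21), a mean 3.27-fold lower level, with an adjusted p of 0.022 in edgeR's quasi-likelihood test over 15249 genes. Control library 1, the one with little choroid plexus RNA, was the lowest control and was still above every stressed library. With control libraries 2 and 3 left out together, the log2 difference was -1.19 and edgeR's adjusted p was 0.999. The call was also lost on leaving out control male library 2 (adjusted p = 0.135) or 3 (0.201), stressed male library 1 (0.276), 2 (0.141) or 3 (0.323), or control female library 2 (0.0632). In the 6 edgeR fits with 1 library left out the log2 difference lay between -1.77 and -1.54.

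Npas4, a transcription factor found mainly in neurons and induced by calcium entry, was at 19.1, 20.5 and 17.9 CPM in controls and at 12.3, 9.12 and 10.2 CPM after stress. Its control libraries were even, and its log2 difference was -0.86 with all libraries and -0.84 without control libraries 2 and 3. Btg2, an antiproliferative co-regulator, was at 12.7, 20.8 and 16.3 CPM against 7.65, 7.597 and 8.64 CPM, a log2 difference of -1.06 (SE 0.18, edgeR adjusted p = 0.479) that was -0.66 without those libraries. Neither passed in edgeR, and DESeq2 called Btg2.

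The Egr zinc finger factors had a different pattern over the control libraries. Egr1 was at 220, 250 and 387 CPM in controls and at 168, 176 and 187 CPM after stress. Egr2 was at 7.51, 10.97 and 15.0 CPM against 5.20, 7.16 and 4.43 CPM. In both genes the groups did not overlap, but control library 3 was far above control library 1, and the log2 differences of -0.69 and -1 became -0.29 and -0.40 without control libraries 2 and 3. Fosb (log2 -0.71, then -0.34) and Fosl2 (log2 -0.62, then -0.21), which encode other AP-1 subunits, also had smaller differences in that fit. The choroid plexus levels of the same libraries stand above, and their part in these differences was not tested.

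The nuclear receptor gene Nr4a1 behaved like Npas4. It was at 85.2, 77.2 and 90.7 CPM in controls and at 46.9, 39.4 and 51.4 CPM after stress, with a log2 difference of -0.88 and of -0.87 without control libraries 2 and 3. Its relatives were different. Nr4a3 had log2 -0.27, then -0.06, with stressed library 2 at 29.5 CPM inside the control range of 24.0 to 30.1 CPM. Nr4a2 was low, at 0.883 to 3.15 CPM over the male libraries, with a log2 difference of -0.38 that turned to 0.57 without control libraries 2 and 3. Jun (log2 -0.31), Klf10 (-0.35) and Klf2 (-0.35), all transcription factor genes, had no overlap between the groups, and their differences without those libraries were -0.49, -0.45 and -0.54. Junb, Egr3, Ier2, Ier5 and Klf4 overlapped between the groups, with log2 differences of -0.45, -0.29, -0.14, -0.16 and -0.04, and that of Klf4 turned to 0.37 without control libraries 2 and 3, where Egr3 was at -0.19 and Ier2 at -0.23. These members beyond Fos, Btg2, Npas4 and Egr2 were named after their values were seen.

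**Figure D2:**
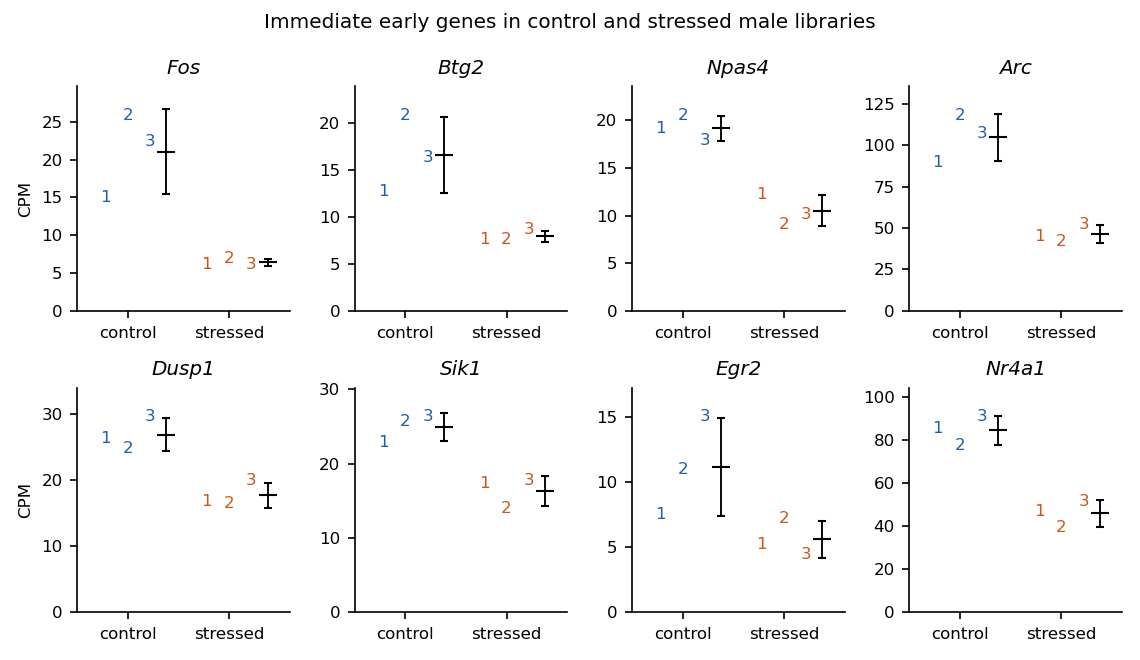
CPM of 8 immediate early genes in the male libraries, shown by library number (blue for control, orange for stressed), with the mean and SD of the 3 libraries of each group beside them. The control and stressed numbers do not overlap in any of the 8 panels, and library 1 is the lowest control for Fos, Btg2, Arc, Sik1 and Egr2.

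As a list, immediate early transcription factors and regulators were 20 of 20 negative (23 listed; Fosl1, Atf3 and Maff were below the count filter), with a median log2 difference of -0.42 against -0.0011 over all genes. Of the 20, 1 was called, 8 lay lower at an unadjusted p below 0.05 (1.88% of all genes) and 11 had no overlap with the stressed libraries lower (4.24% of all genes). Their summed level was 646, 696 and 880 CPM in controls and 463, 466 and 521 CPM after stress, without overlap. Control library 1 alone was above all 3 stressed libraries in 13 of the 20, and below all 3 in 1, while over all genes the numbers were 3944 above and 3661 below of 15249. Leaving out control libraries 2 and 3, 18 of the 20 were negative (46.5% of all genes), the median was -0.37, and 4 lay lower at an unadjusted p below 0.05 (0.459% of all genes).

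The effectors and feedback regulators were more mixed. Arc, whose product moves glutamate receptors out of the synapse, was at 89.8, 118 and 107 CPM in controls and at 44.8, 42.0 and 52.3 CPM after stress. All stressed libraries lay below all controls, the log2 difference was -1.18 (SE 0.25, edgeR adjusted p = 1), and it was -0.93 without control libraries 2 and 3. Dusp1, a phosphatase that ends MAP kinase signalling, was at 26.3, 24.8 and 29.5 CPM against 16.8, 16.4 and 19.9 CPM (log2 -0.60, then -0.55). Dusp1 overlaps Ergic1 on the opposite strand, as Jun does Junos and Junb does Prdx2, and the labels do not say whether reads were counted by strand. Sik1, a kinase that restrains CREB co-activators, was at 22.9, 25.6 and 26.3 CPM against 17.4, 14.0 and 17.7 CPM (log2 -0.61, then -0.46). The control libraries of Dusp1 and Sik1 differed little from each other, while those of Arc spread further. For Arc and Sik1 control library 1 was the lowest control.

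Of the other effectors, named after their values were seen, Arl4d, a small GTPase, had log2 -0.68, and Ccn1, a secreted matricellular protein, also had log2 -0.68. In the fit with control library 1 alone they were at -0.62 and -0.73. Dusp6 had log2 -0.36, then -0.14, and Gadd45b, a stress-induced factor also linked to DNA demethylation, had -0.38, then -0.44. Members with differences near 0 were Homer1 (-0.02, then 0.13), the neurotrophin gene Bdnf (-0.01, then -0.14, at most 1.02 CPM in every male library) and Errfi1 (0.09, then 0.16), although Errfi1 has the full palindrome in its promoter. The list as a whole had 18 of 22 negative and a median of -0.25. Within it edgeR called 0 and DESeq2 called Arc. In the list 6 lay lower at an unadjusted p below 0.05 (1.88% of all genes) and 7 lay lower without overlap (4.24% of all genes). With control library 1 alone, 16 of 22 were negative (46.5% of all genes) and the median was -0.17.

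**Figure D3:**
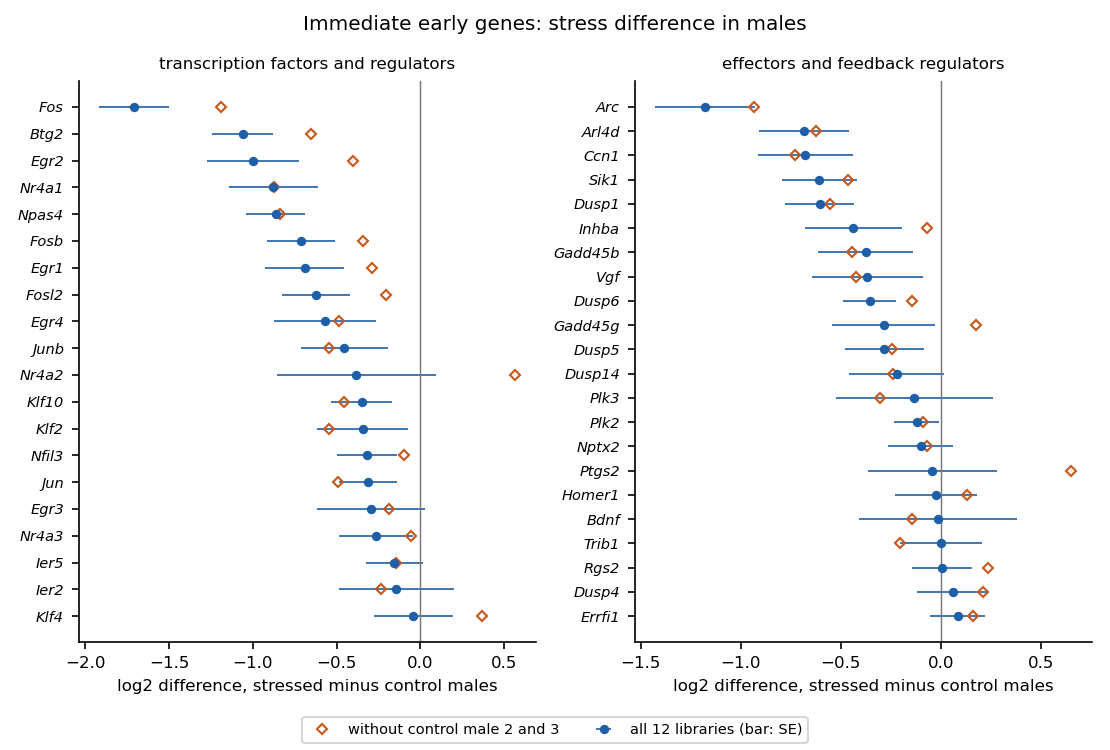
Log2 difference, stressed minus control males, of the 20 transcription factors and regulators (left) and the 22 effectors and feedback regulators (right), with all 12 libraries (blue, bar: SE) and without control male libraries 2 and 3 (open orange). Npas4 and Nr4a1 are at nearly the same value in both fits, Fos, Btg2, Egr1 and Egr2 are closer to 0 in the second, and Nr4a2 and Klf4 cross 0.

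The stress response also runs through the hormonal axis, in which corticotropin-releasing hormone drives the release of glucocorticoids, which act on cells through the receptor Nr3c1. Crh, the gene of that peptide, which some accumbens neurons also make, was at 2.71, 2.39 and 3.49 CPM in controls and at 5.69, 5.75 and 5.62 CPM after stress. All stressed libraries lay above all controls, with a log2 difference of 0.98 (SE 0.22, edgeR adjusted p = 1) that was 1.09 without control libraries 2 and 3. In the neuropeptide and Crh system list 8 of 20 were positive (median log2 -0.05). Crh was the 1 higher member at an unadjusted p below 0.05 (0.938% of all genes). The delta opioid receptor gene Oprd1 was at 27.6, 29.8 and 26.1 CPM against 19.5, 18.2 and 24.8 CPM, without overlap (log2 -0.42, then -0.39). The mu opioid receptor gene Oprm1 had log2 -0.37 and overlapping groups, and was at -0.07 without control libraries 2 and 3.

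Nr3c1 showed no separation, at 93.2, 114 and 95.8 CPM against 79.2, 128 and 99.1 CPM (log2 0.02, then 0.16, with a sign that differed between fits). Among genes that glucocorticoids induce, Sgk1, a kinase that acts on ion channels, was at 65.4, 55.9 and 56.1 CPM against 75.9, 72.7 and 71.2 CPM. Tsc22d3, which encodes the anti-inflammatory factor GILZ, was at 42.8, 35.3 and 40.0 CPM against 50.02, 60.1 and 49.1 CPM. Both had no overlap between groups, with log2 differences of 0.31 and 0.43 that were 0.19 and 0.34 without control libraries 2 and 3. Sult1a1, a sulfotransferase, had log2 0.63 with overlapping groups and 0.19 in the second fit. Fkbp5, a co-chaperone of the receptor, had log2 0.14, then 0.01. In the list 15 of 19 were positive with a median of 0.17, 3 lay higher at an unadjusted p below 0.05 (0.938% of all genes) and edgeR called 0. Leaving out control libraries 2 and 3 gave a median of -0.04, with 11 of 19 negative. The summed level was 1011, 756 and 799 CPM in controls and 1038, 824 and 904 CPM after stress. The groups overlapped, with control library 1 above stressed libraries 2 and 3. At each number the stressed library was the higher, but the number was not taken as a pairing.

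The series also deleted Dnmt3a, so the DNA methylation machinery was followed in the unmodified males. Dnmt3a, a methyltransferase that sets new methylation, was at 180, 180 and 186 CPM in controls and at 162, 148 and 181 CPM after stress (log2 -0.16, SE 0.11, edgeR adjusted p = 1). Dnmt1, which copies methylation at replication, was at 74.2, 74.9 and 90.3 CPM against 69.4, 65.1 and 80.2 CPM (log2 -0.16, then -0.03). Tet3, which oxidises methylated cytosine, was at 93.6, 92.9 and 111 CPM against 82.6, 79.9 and 93.2 CPM (log2 -0.22, then -0.11). All 3 overlapped between the groups. In the list 17 of 19 were negative (median -0.16), 0 had an unadjusted p below 0.05, and without control libraries 2 and 3 the median was -0.10 with 13 of 19 negative.

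Apart from these lists, the genes of smallest unadjusted p were taken in each direction. Only genes without overlap between the male groups and averaging at least 1 on the log2 CPM scale were eligible. The lack of overlap in these genes was thus fixed by the choice. The 12 lower genes were Fos, Btg2, Npas4, Arc, Egr2 and 7 others, and of these edgeR's adjusted threshold was passed by Fos, while DESeq2 also called Btg2 and Arc. Sulf1, an enzyme that trims heparan sulfate outside the cell, was at 50.3, 65.7 and 83.0 CPM in controls and at 43.1, 36.6 and 39.7 CPM after stress. Notch2, a cell surface receptor, was at 38.9, 50.9 and 52.1 CPM against 31.3, 28.8 and 29.9 CPM. In both, control library 1 was the lowest control, and the log2 differences of -0.74 and -0.66 became -0.32 and -0.35 without control libraries 2 and 3. Zdhhc23, a protein palmitoyltransferase gene, had log2 -0.60, then -0.39. The mechanically gated channel gene Piezo1 had log2 -0.97, then -0.65.

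The others of the 12 had even control libraries. Stra6, a receptor for the retinol binding protein, was at 21.8, 23.02 and 22.1 CPM in controls and at 13.3, 15.4 and 15.9 CPM after stress (log2 -0.59, then -0.53). Thsd4, a protein of extracellular microfibrils, was at 14.4, 14.4 and 14.6 CPM against 9.81, 10.1 and 10.9 CPM (log2 -0.49, then -0.47). Gimap1, a GTPase gene of immune cells, was at 2.71, 3.04 and 2.47 CPM against 1.18, 1.74 and 1.30 CPM (log2 -0.96, then -0.93). On the other strand, each of Piezo1, Stra6, Gimap1 and Thsd4 has an overlapping gene.

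Among the 12 higher genes, Rasgrf2, a calcium-responsive activator of Ras that is present in striatal neurons, was at 82.2, 77.1 and 76.5 CPM in controls and at 123, 99.0 and 112 CPM after stress. Its log2 difference was 0.50 (SE 0.12), and 0.46 without control libraries 2 and 3. Resp18, a protein of neuroendocrine secretory granules, was at 26.3, 21.8 and 23.4 CPM against 39.6, 36.0 and 33.5 CPM (log2 0.61). Etnppl, an astrocyte enzyme that breaks down phosphoethanolamine, was at 12.7, 12.7 and 12.8 CPM against 21.7, 25.8 and 21.7 CPM (log2 0.85, then 0.88). Aldh1a1, which makes retinoic acid, was at 9.49, 7.92 and 8.00 CPM against 17.1, 10.96 and 13.9 CPM (log2 0.72). Each of these had the 3 stressed libraries above the 3 controls, as the choice required, and none passed (edgeR adjusted p = 1).

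A heat shock and an interferon gene were among the rest. Ifit3b, an interferon-induced gene whose reads may be shared with its close copy Ifit3, was at 1.56, 1.41 and 1.36 CPM against 2.94, 2.93 and 3.56 CPM (log2 1.12). Bag2, a co-chaperone of Hsp70, was at 3.44, 2.71 and 3.06 CPM against 4.71, 5.10 and 5.83 CPM (log2 0.76). The remaining members were the neurotensin receptor gene Ntsr1 (log2 0.80), the mitochondrial import gene Pam16 (0.49), the translation factor copy Mcts2 (0.55), the mitochondrial protein gene Fam162a (0.41) and the centromere factor gene Mis18a (0.85). Leaving out control libraries 2 and 3, all 12 higher genes stayed positive, from 0.39 for Mis18a to 1.09 for Crh. Genes on the other strand overlap Resp18, Bag2, Aldh1a1, Pam16 and Fam162a.

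**Figure D4:**
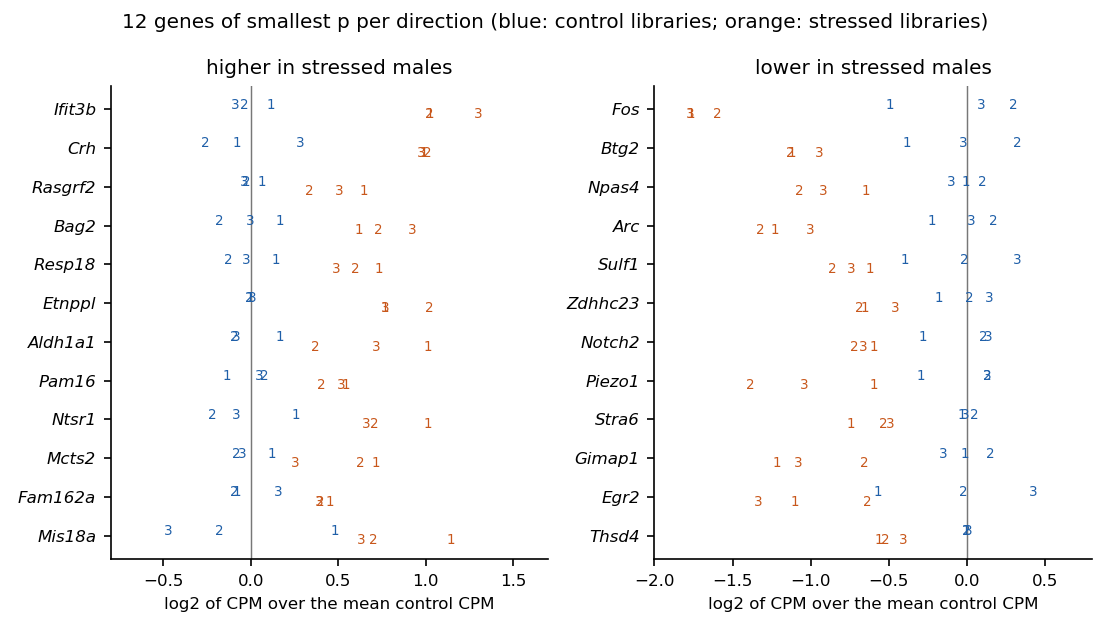
The 12 genes of smallest p in each direction with no overlap between the groups, as log2 of each library's CPM over the mean control CPM, with numbers giving the library (blue for control, orange for stressed). Among the higher genes the control numbers lie together for Rasgrf2 and Etnppl. Among the lower genes control library 1 lies to the left of the other controls for Fos, Btg2, Arc, Sulf1, Zdhhc23, Notch2, Piezo1 and Egr2. It does so by a small margin for Stra6 and Thsd4, and not for Npas4 and Gimap1.

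The lists to which Ifit3b and Bag2 belong did not lean one way. Interferon and antigen presentation genes were 12 of 27 positive with a median of -0.04. Within them Ifit1 had log2 0.91, then 0.55, with overlapping groups, and Tap1, a peptide transporter that overlaps Psmb9 on the opposite strand, had log2 -0.74. Heat shock and chaperone genes were 6 of 19 positive (median -0.08), and the median turned to 0.13 without control libraries 2 and 3. The mitochondrial chaperonin gene Hspe1 had log2 0.44 in that list.

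Medium spiny neuron genes differed little. Drd1 was at 289, 264 and 245 CPM in controls and at 236, 287 and 250 CPM after stress (log2 -0.05, then -0.14). Drd2 was at 281, 256 and 252 CPM against 250, 201 and 238 CPM (log2 -0.20). Drd3, a dopamine receptor enriched in the accumbens, was at 12.8, 14.9 and 11.8 CPM against 8.93, 9.77 and 9.94 CPM, without overlap (log2 -0.46, then -0.41). Only Drd1 among these 3 had overlapping groups, and none passed in edgeR.

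Genes shared by both kinds of spiny neuron lay slightly lower, 16 of 18 negative with a median of -0.13 and of -0.20 without control libraries 2 and 3. Pde10a was at 1496, 1521 and 1476 CPM against 1207, 1189 and 1292 CPM (log2 -0.28, then -0.26). Rgs9, which shortens dopamine receptor signalling, was at 492, 444 and 496 CPM against 417, 316 and 405 CPM (log2 -0.33, then -0.36). These 2 were the members without overlap, where 4.24% of all genes lay lower. They were also the 2 at an unadjusted p below 0.05, where 1.88% of all genes lay lower. The D1 list had 4 of 8 negative (median -0.01; the opioid peptide gene Pdyn -0.18), and the D2 list had 5 of 6 negative (median -0.20; Ptprm -0.28, then -0.16). Striatal interneuron genes had a median of -0.01, with the parvalbumin gene Pvalb at log2 0.88 and overlapping groups.

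Glutamate receptor and postsynaptic density genes had 30 of 41 negative (median -0.08). The NMDA receptor subunit gene Grin2a was at 72.3, 75.2 and 66.5 CPM against 55.6, 51.1 and 59.8 CPM (log2 -0.36, then -0.36). Grin2b was at 174, 220 and 209 CPM against 156, 129 and 154 CPM (log2 -0.46, then -0.23), and Grin3a lay the other way at log2 0.31. With control library 1 alone the list had 23 of 41 negative and a median of -0.02. Synaptic vesicle release genes had a median of -0.05, with Unc13a at -0.28 and Pclo at -0.25, then -0.06, and GABA signalling genes had a median of 0.00. Among the genes named by list, Igf2, Errfi1, Bdnf, Dnmt3a, Tet3, Oprm1, Sult1a1, Fkbp5, Hspe1, Pde10a, Ptprm, Grin2b, Unc13a, Pclo, P2ry12, Bmp4 and Atp5o also have an overlapping gene on the other strand.

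Markers of tissue and cell types beyond the spiny neurons gave the following. Cortical and other excitatory neuron markers had 7 of 12 positive and a summed level of 190 to 242 CPM in controls and of 213 to 233 CPM after stress. The cortical glutamate transporter gene Slc17a7 had 14.1 to 36.0 CPM in controls and 4.71 to 32.6 CPM after stress, and Slc17a6, its subcortical counterpart, had log2 0.71, then 0.46. Microglia markers were 13 of 17 positive (median 0.10, then -0.01), with the purine receptor gene P2ry12 at log2 0.35, then 0.59. Oligodendrocyte (median -0.06), oligodendrocyte precursor (-0.07; Bmp4 -0.90, then -0.51), astrocyte (-0.03) and endothelial and mural markers (0.00; Kdr -0.44, then -0.09, Cldn5 -0.36) were near the median of all genes. Blood genes had a median of 0.18, and of -0.51 without control libraries 2 and 3, where the control left is the library numbered 1, the highest control at 64.7 CPM.

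Ribosomal protein and oxidative phosphorylation genes were mostly positive with all libraries. Of 77 ribosomal protein genes, 74 were positive (median 0.22). In the list 5 lay higher at an unadjusted p below 0.05 (0.938% of all genes) and 7 lay higher without overlap (3.67% of all genes). Rpl23 was at 206, 163 and 200 CPM against 240, 238 and 218 CPM (log2 0.29, then 0.19), and Rpl7 (log2 0.43, then 0.17) and Rps27l (log2 0.42) were the next of smallest p. Control library 2 was below all stressed libraries in 70 of the 77 and control library 3 in 53, but control library 1 was so in 9 and was above all stressed libraries in 18. Without control libraries 2 and 3 the median was -0.05 and 50 of 77 were negative. Oxidative phosphorylation subunits had 60 of 76 positive (median 0.11, then -0.03), with Ndufs5, Atp5c1 and Atp5o at log2 0.35, 0.40 and 0.30, then 0.26, 0.20 and 0.17. In that fit the remaining control is the library numbered 1, and the libraries numbered 1 summed to 7318 to 9244 CPM for ribosomal protein genes in the 4 wild-type groups, against 5640 to 7787 CPM in the other 8. Between male libraries of the same number, the stressed library had the higher ribosomal protein sum in all 3, at 9244 against 8768, 7620 against 5790 and 7787 against 6631 CPM. The same held for oxidative phosphorylation, at 10110 against 9709, 9166 against 8024 and 9415 against 8890 CPM. The number was not taken as a pairing. For both lists the groups overlapped, with control library 1 above stressed libraries 2 and 3. The part of the number and of choroid plexus RNA in these differences was not tested.

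**Figure D5:**
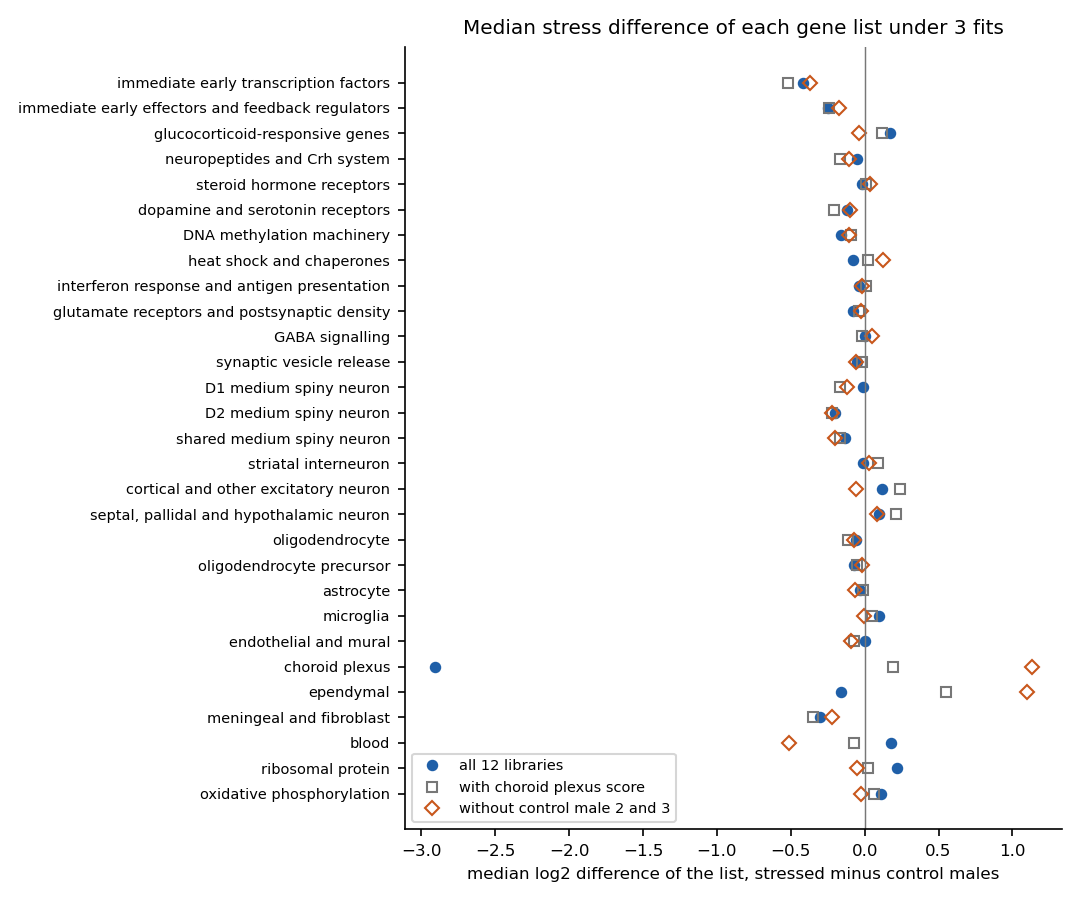
Median log2 difference, stressed minus control males, of each of the 29 gene lists with all 12 libraries (blue), with the choroid plexus score added (open grey squares) and without control male libraries 2 and 3 (open orange diamonds, same genes). The immediate early lists lie below 0 in all 3 fits, while, among others, the choroid plexus, ependymal, blood, glucocorticoid-responsive, ribosomal protein and oxidative phosphorylation medians have both signs over the 3 fits.

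The stress difference was then set against that in wild-type females, which shares the fit but no library. Females had 256 genes (1.68%) at an unadjusted p below 0.05. The interaction test in edgeR called 0 of 15249 genes, with 182 (1.19%) at an unadjusted p below 0.05. In females Fos was at 21.3, 16.8 and 16.9 CPM in controls and at 7.45, 8.85 and 7.10 CPM after stress. Its log2 difference was -1.23 against -1.71 in males, a difference of 0.48 between the sexes (edgeR interaction adjusted p = 1). Npas4 had -1.13 in females and -0.86 in males, and Arc had -1.03 and -1.18. Btg2 was the member of the immediate early lists with an unadjusted interaction p below 0.05, at -0.36 in females and -1.06 in males, and it did not pass (edgeR interaction adjusted p = 1).

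Over both immediate early lists, 40 of 42 were negative in females and 38 of 42 in males. In females 20 of the 42 lay lower without overlap (2.58% of all genes), in males 18, and 14 did so in both sexes, where 53 of all 15249 genes did. The choroid plexus list had a median of 0.50 in females, with 3 of 21 negative. Cortical and other excitatory neuron markers had a median of -1.05 in females, with 9 of 12 negative and 3 lower without overlap (2.58% of all genes). Their summed level was 271, 328 and 211 CPM in control females and 216, 230 and 221 CPM after stress. In females Slc17a7 was at 41.05, 109 and 29.9 CPM against 9.89, 21.7 and 26.6 CPM. The part of cortical RNA in the female differences was not tested. Crh had log2 0.54 in females and Resp18 had 0.77, again higher without overlap (2.72% of all genes). The glucocorticoid-responsive list had a median of -0.19 in females and 0.17 in males, with 0 members called in the interaction test and 1 at an unadjusted p below 0.05. Sgk1 was at log2 0.17 in females and Dnmt3a at -0.07.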

How the data were processed

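Poly(A) RNA from nucleus accumbens punches was sequenced. The deposited table holds whole-number counts per Ensembl gene for 37991 genes, raw and unscaled, per the file headers and values. Bowtie2 2.1.0, TopHat2 2.0.9, HTSeq 0.6.0 and the builds NCBIM37 and mm9 are listed in the submitters' processing notes, without roles. Counting by strand is not given in the sources used here. Symbols came from GENCODE M21 by Ensembl ID (32919 matched).

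In R 4.3.3, the 12 wild-type libraries were filtered with filterByExpr (15249 genes), scaled with TMM and fitted with edgeR 4.0.16 (robust quasi-likelihood, 4 group means, 8 residual degrees of freedom). The male contrast and the interaction (females minus males) went through its quasi-likelihood F test, with Benjamini-Hochberg adjustment over all genes and a threshold of 0.05. SE is the size of the log2 difference over the root of F. limma 3.58.1 and DESeq2 1.42.0 were alternatives, together with another scaling, no filter, a fit of the 6 male libraries, a replicate block, marker covariates and left-out libraries. The fit was also run on simulated data for the male contrast (15249 genes, 50 of them changed at each fold). It called 22% of those changed 1.5-fold, 82% of those changed 2-fold and 100% at 3-fold, with 6 false calls. In the real data it called Fos, 3.275-fold lower in mean CPM. It did not call Btg2 (2.09-fold lower, edgeR adjusted p = 0.479) or Arc (2.26-fold lower). How far the simulated shares hold for the real libraries was not tested.

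Lists were described by counts and medians only. The genes to be named were the called genes, up to 12 of smallest p per direction without overlap and averaging at least 1 on the log2 CPM scale, up to 3 of smallest p per list, a fixed set (Fos, Npas4, Arc, Crh, Fkbp5, Nr3c1, Dnmt3a, Dnmt1, Drd1, Drd2 and Ttr) and 3 for the interaction. Of 112 genes this rule allows, 38 list members are left to counts, a choice made after values were seen. None of the 38 had an unadjusted p below 0.05, and 7 changed sign without control male libraries 2 and 3. Lists, members and the fit without those 2 libraries were chosen with earlier results of these data known. Promoters came from RefSeq (GRCm38.p6).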

Additional observations from a re-analysis of the deposited data

Results flagged for a closer look

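Among the genes named, 3 had all stressed libraries on 1 side of all controls in males and on the other side in females. These 3 also had the smallest p in the interaction test and were named by that rule. The difference is thus no independent finding. Genes not named in the text were not searched for this pattern. Over all genes, 3.67% lay higher and 4.24% lower without overlap in males, and 2.72% and 2.58% in females. Sulf1 lay lower in stressed males and higher in stressed females, with an interaction log2 of 0.87. Prkag2os1, an antisense RNA over Prkag2 with 0.109 to 1.37 CPM in the male libraries, lay higher in males and lower in females, with an interaction log2 of -4.09. Bglap3 lay lower in males and higher in females, with an interaction log2 of 2.55. None passed edgeR's interaction test, with an adjusted p of 0.734 for Prkag2os1 and 1 for the others.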

How the results depend on the processing

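The male comparison called 1 gene (Fos) with edgeR, and also with RLE scaling and with the choroid plexus, ependymal and meningeal genes removed. It called 4 with DESeq2 (Arc, Btg2, Fos and Rasgrf2), 3 without a filter (Arc, Btg2 and Fos) and 0 with limma-voom, with the 6 male libraries only, with the choroid plexus score, with the cortical score and without control male libraries 2 and 3; the causes were not tested. At an unadjusted p below 0.05 these 5 fits with 0 calls held 383, 405, 277, 384 and 201 genes, against 429, the 201 among the 15930 genes of its own filter; the number was 760 without a filter and 1128 with the replicate block. Leaving out 1 library at a time gave 0 to 1 calls. The interaction called 0 genes in every alternative run. With the replicate block the male comparison called 4 genes (Arc, Btg2, Fos and Nr4a1); the correlations of same-numbered male libraries were 0.341, 0.247 and 0.086 and of female ones 0.592, 0.334 and 0.524. Since 1 male pair is under 0.1 the number was not taken as a pairing, although 5 of 6 pairs are above it and 6 of 6 male libraries correlated best with their own number.

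Some genes changed sign; the cause was not tested. Nr3c1 was at log2 -0.005 with limma-voom and -0.0022 with the replicate block. With the choroid plexus score the values were 0.321 for Nr4a2, 0.186 for Klf4, 1.82 for Ttr and 0.292 for Folr1. Without control male libraries 2 and 3 they were 0.565 for Nr4a2, 0.368 for Klf4, 3.54 for Ttr, 0.406 for Kl, 0.578 for Otx2, 0.65 for Tmem72, 0.44 for Enpp2, 2.87 for Folr1 and 0.0108 for Igf2. Over fits leaving out 1 library, Nr3c1 ranged from -0.176 to 0.172, Drd1 ranged from -0.13 to 0.0174 and Klf4 ranged from -0.2 to 0.22. With 3 libraries a group, 1.5-fold changes simulated for the male comparison were called in 22% of genes. Smaller differences are thus below what could be called for most genes in such data. The share for the real libraries was not tested.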

Other observations

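In all 4 wild-type groups, the library numbered 1 differed from the others in blood RNA. The summed level of 5 haemoglobin and erythroid genes was 64.7 to 73.6 CPM in the 4 libraries numbered 1 and 18.7 to 38.3 CPM in the other 8, without overlap. Ribosomal protein genes summed to 7318 to 9244 CPM in the libraries numbered 1 and to 5640 to 7787 CPM in the other 8, and oxidative phosphorylation subunits to 8242 to 10110 and 7764 to 9415 CPM, both with overlap. Each group holds 1 such library, and when the 2 other control males were left out the remaining control was the library numbered 1.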
